A study of Homo sapiens with 191 samples.

Results

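Telomerase and the shelterin complex were followed through 10 genes in a map of open chromatin from GM12878, an immortal line of human B cells transformed with Epstein-Barr virus. The genes were listed by name: TERT, TERC and DKC1 of the telomerase enzyme, TERF1, TERF2, TERF2IP, TINF2, ACD and POT1 of shelterin, and RTEL1, a helicase that works at telomeres. Of 50000 accessible regions in the map, 28 had their centre in one of these genes or within 10 kb on each side, and 16 of the 28 lay within 1 kb of an annotated transcription start site (TSS) of the gene itself. Such a region is called a promoter region here. The annotation held 20098 protein-coding genes and 18592 genes of long noncoding RNA (lncRNA) for comparison.

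The cells were fixed, permeabilised and exposed in bulk to the transposase of ATAC-seq, which inserts sequencing adapters where DNA is open. They carried no antibody stain and were sorted singly into 2 plates, which gave 96 libraries on plate 1 and 95 on plate 2, all of 1 group and 1 cell line. The authors called regions on the pooled cells, so each region has 1 score, single cells have none of their own, and neither replicates nor a second group exist. The score is −log10 of a q-value and grows with both the accessibility and the number of reads, and the depth of the libraries is unknown from the list.

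The list ran between scores of 16.0 and 4437.6, with a median of 31.6, and 3102 regions shared the lowest score. A gene without a region may therefore have had a weaker one below that limit. Among the B cell marker genes reported here, EBF1 (231.4) and MS4A1 (106.3) had the strongest promoter regions. The B cell markers with a promoter region had scores from 34.7 to 231.4. Their median was 73.1, below the 129.6 of protein-coding genes with a promoter region. Promoter regions were present at 7 of 8 B cell, 1 of 4 T cell, 2 of 4 myeloid and 1 of 4 erythroid marker genes. The share over all protein-coding genes was 57.2%. The T cell gene had 44.2 and the erythroid gene 59.2, both within the range of the B cell markers, and the myeloid genes had 18.7 and 33.1. No statistical test was possible between genes in 1 pooled list, and all comparisons below are descriptions of scores, ranks and counts.

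Telomerase adds telomeric repeats to chromosome ends. TERT is its reverse transcriptase, TERC the RNA that carries the template, and DKC1 encodes dyskerin, which binds and stabilises that RNA. Shelterin covers the repeats. TERF1 (TRF1) and TERF2 (TRF2) bind the double-stranded repeat, TERF2IP (RAP1) binds TERF2, POT1 binds the single-stranded overhang, ACD (TPP1) holds POT1 and recruits telomerase, and TINF2 (TIN2) bridges them. Most human somatic cells silence TERT, whereas the shelterin genes are broadly expressed, and lymphocytes switch TERT on when they are activated.

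TERT had 1 promoter region, and it was one of the weakest of the group. The gene (ENSG00000164362) lies on the minus strand at chr5:1253262-1295183 (hg19), 1.3 Mb from the end of the chromosome. Its promoter region, chr5:1295012-1295512, was centred 79 bp upstream of the canonical TSS and had a score of 57.4, rank 15168 of the list. The promoter regions of the 9 other genes had scores between 30.1 and 2236.4 with a median of 390.0, so that TERT differed from that median by −332.6 units and was ninth of the 10. Among the 11503 protein-coding genes with a promoter region, 28.9% had a lower score than TERT. Among all protein-coding genes, with or without one, 40.7% had a score at least as high.

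The promoter sequences are shown for TERT and for the genes at the extremes of the scores, POT1 and RTEL1, together with DKC1 as the other enzyme protein. Each covers 250 bases before and 50 after the RefSeq start, written 5′ to 3′ on the strand of the gene, from the RefSeq table of build GRCh38.p14, and each was found exactly once in GRCh37 at the hg19 position given. The table matched 7 of the 10 genes. Capitals mark matches on either strand to the letters CACGTG (E-box, bound by MYC and USF proteins) and GGGCGG (GC box, bound by SP1). They also mark CCGGAA (a form of the site of ETS factors, called ETS core here), TGACGTCA (cyclic AMP response element) and GCATGCGC (NRF1). Sites of ETS factors with other letters were not searched. Adjoining capitals can be 2 overlapping matches. The windows of TERT, POT1 and DKC1 lay wholly inside their accessible regions, and that of RTEL1 overlapped its region in part.
TERT, chr5:1295134-1295433, minus strand: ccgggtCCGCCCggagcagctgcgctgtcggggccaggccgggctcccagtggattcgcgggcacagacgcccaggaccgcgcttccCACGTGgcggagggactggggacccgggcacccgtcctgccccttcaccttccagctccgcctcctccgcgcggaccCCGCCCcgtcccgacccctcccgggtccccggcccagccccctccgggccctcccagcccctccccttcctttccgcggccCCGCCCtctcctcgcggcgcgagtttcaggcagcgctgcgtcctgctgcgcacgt
POT1, chr7:124569830-124570129, minus strand: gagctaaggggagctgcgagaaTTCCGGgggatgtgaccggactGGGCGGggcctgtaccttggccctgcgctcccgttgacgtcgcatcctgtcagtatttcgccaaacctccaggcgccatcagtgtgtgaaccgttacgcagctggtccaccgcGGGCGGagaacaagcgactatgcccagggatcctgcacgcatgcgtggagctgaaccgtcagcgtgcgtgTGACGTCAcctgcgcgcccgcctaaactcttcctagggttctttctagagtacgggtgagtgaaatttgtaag
RTEL1, chr20:62289415-62289714, plus strand: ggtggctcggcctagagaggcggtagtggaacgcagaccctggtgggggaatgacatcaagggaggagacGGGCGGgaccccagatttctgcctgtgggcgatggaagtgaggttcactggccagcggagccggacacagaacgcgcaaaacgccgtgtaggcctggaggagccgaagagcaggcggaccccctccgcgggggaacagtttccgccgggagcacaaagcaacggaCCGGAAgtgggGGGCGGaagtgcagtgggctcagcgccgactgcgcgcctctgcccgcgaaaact
DKC1, chrX:153990889-153991188, plus strand: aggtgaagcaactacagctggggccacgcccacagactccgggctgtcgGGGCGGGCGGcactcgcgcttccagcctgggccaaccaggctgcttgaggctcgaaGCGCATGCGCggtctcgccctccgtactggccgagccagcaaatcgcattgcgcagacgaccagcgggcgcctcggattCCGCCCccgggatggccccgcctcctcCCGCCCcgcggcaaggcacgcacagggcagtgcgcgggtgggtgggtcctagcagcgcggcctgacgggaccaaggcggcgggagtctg

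The 300 bases of TERT were 77.3% G and C, against 72.3% in DKC1, 66.3% in RTEL1 and 60.3% in POT1. They held 1 E-box, upstream of the start, and 3 GC boxes. The window of DKC1 held 4 GC boxes and 2 overlapping NRF1 matches, that of POT1 2 GC boxes, 1 ETS core and 1 cyclic AMP response element, and that of RTEL1 2 GC boxes and 1 ETS core. Of 35116 RefSeq promoters of this length, 7.3% held an E-box, 45.0% a GC box, 17.2% an ETS core, 1.8% the cyclic AMP response element and 3.1% the NRF1 letters. A match describes the letters and not binding of a factor.

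Over the strongest accessible region of each gene, TERT was the one with the E-box. Its region of 501 bp held 2 matches, the one printed and another beginning 46 bases after the TSS, which runs past the printed window. The strongest regions of the 9 other genes held none, and 14.3% of protein-coding genes with a promoter region had the letters in their strongest one (11502 genes, leaving out one with unknown bases). Among the 15 promoter regions of the 9 other genes, weaker ones included, 1 held an E-box, the second region of DKC1. In the strongest regions, GC boxes were found in TERT, with 4 matches, and in 8 of the 9 others, all but TERF1, against 80.4% of protein-coding genes. The exact letters CCGGAA (ETS core) were in 7 of the 10, absent from TERT, DKC1 and ACD, against 40.6%. Their absence does not show that a gene lacks sites of ETS factors, since other forms of the site were not searched. CCAAT was in 4 (TERC, TERF1, TINF2 and RTEL1), against 47.3%. Other matches were in 1 or 2 genes: TGACGTCA in POT1 (4.0% of protein-coding genes), GCATGCGC in DKC1 (7.1%), AAGATGGCG, a YY1 site, in TERF2IP (5.1%), TATAAA in TERC (6.7%), and TTAGGG, 1 unit of the telomeric repeat, in TERC and POT1 (14.3%).

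All 10 genes had a promoter region, against 57.2% of protein-coding genes (11503 of 20098) and, for TERC, 21.6% of lncRNA genes. In each gene the strongest one was centred within 150 bp of a TSS. In 8 of the 9 protein-coding members its score was above the list's median of 31.6, against 48.3% of all protein-coding genes, and RTEL1 was the exception. The scores of the 9 spread over most of the range of protein-coding genes with a promoter region, whose median was 129.6. Of the 9, 6 were above this median, 4 (DKC1, TERF1, TERF2IP and POT1) were above the upper quartile of 334.2, and RTEL1 was below the lower quartile of 49.1. The scores carry no error, so the order of neighbours such as ACD (125.7) and TERF2 (163.8) cannot be tested.

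**Figure D1:**
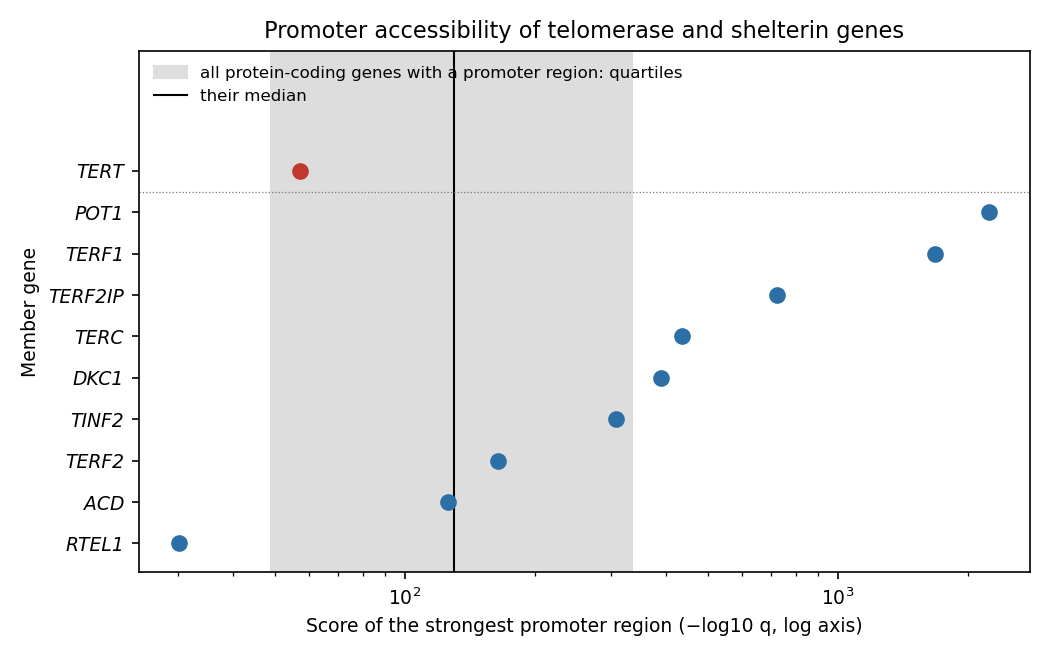
Score of the strongest promoter region (−log10 q, log axis) of TERT (red, top row) and of the 9 other genes (blue), 1 point per gene. TERT, at 57.4, sits left of the median of protein-coding genes with a promoter region (129.6, line; the band spans their quartiles, 49.1 to 334.2), and POT1, at 2236.4, is farthest to the right.

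Of the partners of TERT in the enzyme, both were more accessible at the promoter than TERT by score. TERC (ENSG00000270141), transcribed from the minus strand at chr3:169482308-169482848, had a promoter region at chr3:169482660-169483160 with a score of 437.5, 62 bp upstream of its start. Of the lncRNA genes with a promoter region, 84.0% scored lower, and the median over those genes was 96.9. A second summit of the same called region (207.7) lay 535 bp downstream, at the far end of this short gene. DKC1 (ENSG00000130826) had a region of score 390.0 at chrX:153990745-153991245, 22 bp upstream of its nearest TSS, and a second one of 42.5 in intron 1. Of protein-coding genes with a promoter region, 78.4% scored below DKC1.

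The proteins that bind the telomeric repeat directly held both of the highest scores of the group and a middling one. POT1 (ENSG00000128513) had a score of 2236.4 at chr7:124569758-124570258, rank 71 of the 50000 regions. It was the sole region in its window of the gene plus 10 kb, and the next one lay 56880 bp from the gene. The promoter region is also within 1 kb of a TSS of POT1-AS1, an antisense RNA gene. TERF1 (ENSG00000147601) had a score of 1675.9, rank 195, at chr8:73920763-73921263, with weaker regions of 20.0 and 49.1 downstream, the last of them in intron 1 and away from every TSS. TERF2 (ENSG00000132604), which protects chromosome ends from fusion, had a score of 163.8 at chr16:69419684-69420184, 24 bp upstream of its canonical TSS. An annotated start of TERF2 farther upstream was 16051 bp from the nearest region.

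The other shelterin genes, TERF2IP, TINF2 and ACD, stood at places 3, 6 and 8 of the 10 by score. TERF2IP (ENSG00000166848) had 3 promoter regions, of 723.7, 108.2 and 34.7, and the strongest lay at chr16:75681449-75681949. TINF2 (ENSG00000092330) had one of 306.8 at chr14:24711584-24712084. ACD (ENSG00000102977) had one of 125.7 at chr16:67694072-67694572, just below the median of protein-coding genes with a promoter region. Another of 18.7 lay 598 bp from an internal start of ACD and within 1 kb of a TSS of CARMIL2. Each of these promoters is shared: the region of TERF2IP also lies within 1 kb of a TSS of KARS1, a tRNA synthetase gene, that of TINF2 near an unnamed gene (ENSG00000289979), and that of ACD near PARD6A, a cell polarity gene. The score of a shared region cannot be told apart between the genes.

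RTEL1 (ENSG00000258366), the helicase that unwinds the loop at the chromosome end, was below TERT. Its sole region, chr20:62289599-62290099, had a score of 30.1, rank 25238, and 13.4% of protein-coding genes with a promoter region scored lower. It lay downstream of the canonical TSS, in intron 1, and within 1 kb of TSSs of STMN3 and of the RTEL1-TNFRSF6B readthrough gene. RTEL1, DKC1 and TERT are the genes of the group nearest to a chromosome end, at 0.74, 1.28 and 1.3 Mb, and had scores of 30.1, 390.0 and 57.4.

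Alternative starts were covered unevenly. Of the annotated TSSs of the 10 genes, 70.3% had a region within 1 kb, against 41.6% of those of all protein-coding genes. The latter include the starts of genes without a promoter region, whereas all 10 genes had one. Starts were pooled, so genes with many of them weigh more. In TERT 3 of 6 starts had a region within 1 kb, all at the 5′ end of the gene. The 3 internal starts were 7915, 9905 and 12137 bp from the nearest region. In ACD, by contrast, 27 of 29 starts had one, and in TINF2 21 of 24. Promoter regions numbered 2 or more in 5 of the 10 genes (TERC, DKC1, TERF1, TERF2IP and ACD), against 24.2% of protein-coding genes. With the summits of 1 called region counted once, a count added after the data were seen, ACD alone had 2, against 13.6% of protein-coding genes with 2 or more, since those of the 4 others were summits of the same call.

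Outside the promoters, TERT had more regions than most of the group. Its window held 4 regions with the promoter region included, the number that 22.8% of protein-coding genes reached or passed. Only TERC, with 8, had more among the 9 others. These counts are not scaled to the length of the windows, which differ. Per 100 kb of window TERT had 6.46 regions, below TERC (38.95), ACD (12.88) and TINF2 (8.2) and above the rest. Promoter regions of neighbouring genes are included: 4 of the 8 regions of TERC, 1 of the 3 of ACD and 1 of the 2 of TINF2. The window of TERT held none. The median was 2.5 regions per gene over the 10 and 2 over protein-coding genes. Of the regions of TERT, 3 were more than 1 kb from every TSS: one of 49.1 at chr5:1297298-1297798, 2365 bp upstream of the start, one of 18.7 at chr5:1298905-1299405, 3972 bp upstream, and one of 17.3 at chr5:1256484-1256984, in intron 13. The region 2365 bp upstream was nearly as strong as the promoter region (57.4) and differed from it in composition, with 49.7% GC and 4 CpG, against 78.4% GC and 66 CpG. It held none of the 9 motifs searched. The region farther upstream held 1 E-box, 1 GC box, 1 CCAAT and 3 TATAAA matches.

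Among the 10 genes TERT alone had regions between 1 and 5 kb upstream that were away from every TSS. Of protein-coding genes, 6.20% had at least 1 such region and 0.861% had 2 or more, as TERT did. This measure was chosen after the regions of TERT had been seen. Of the 8 regions of TERC, 2 were its own promoter regions and 4 were promoter regions of its neighbours ACTRT3, the gene of an actin-related protein, and MYNN, a zinc finger gene. The strongest in the window was that of MYNN (757.3), 8417 bp upstream of TERC. TERC had 2 regions away from every TSS (31.6 and 54.1) and TERF1 had 1. The other 7 genes had none, and POT1, TERF2 and RTEL1 had nothing besides the promoter region.

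**Figure D2:**
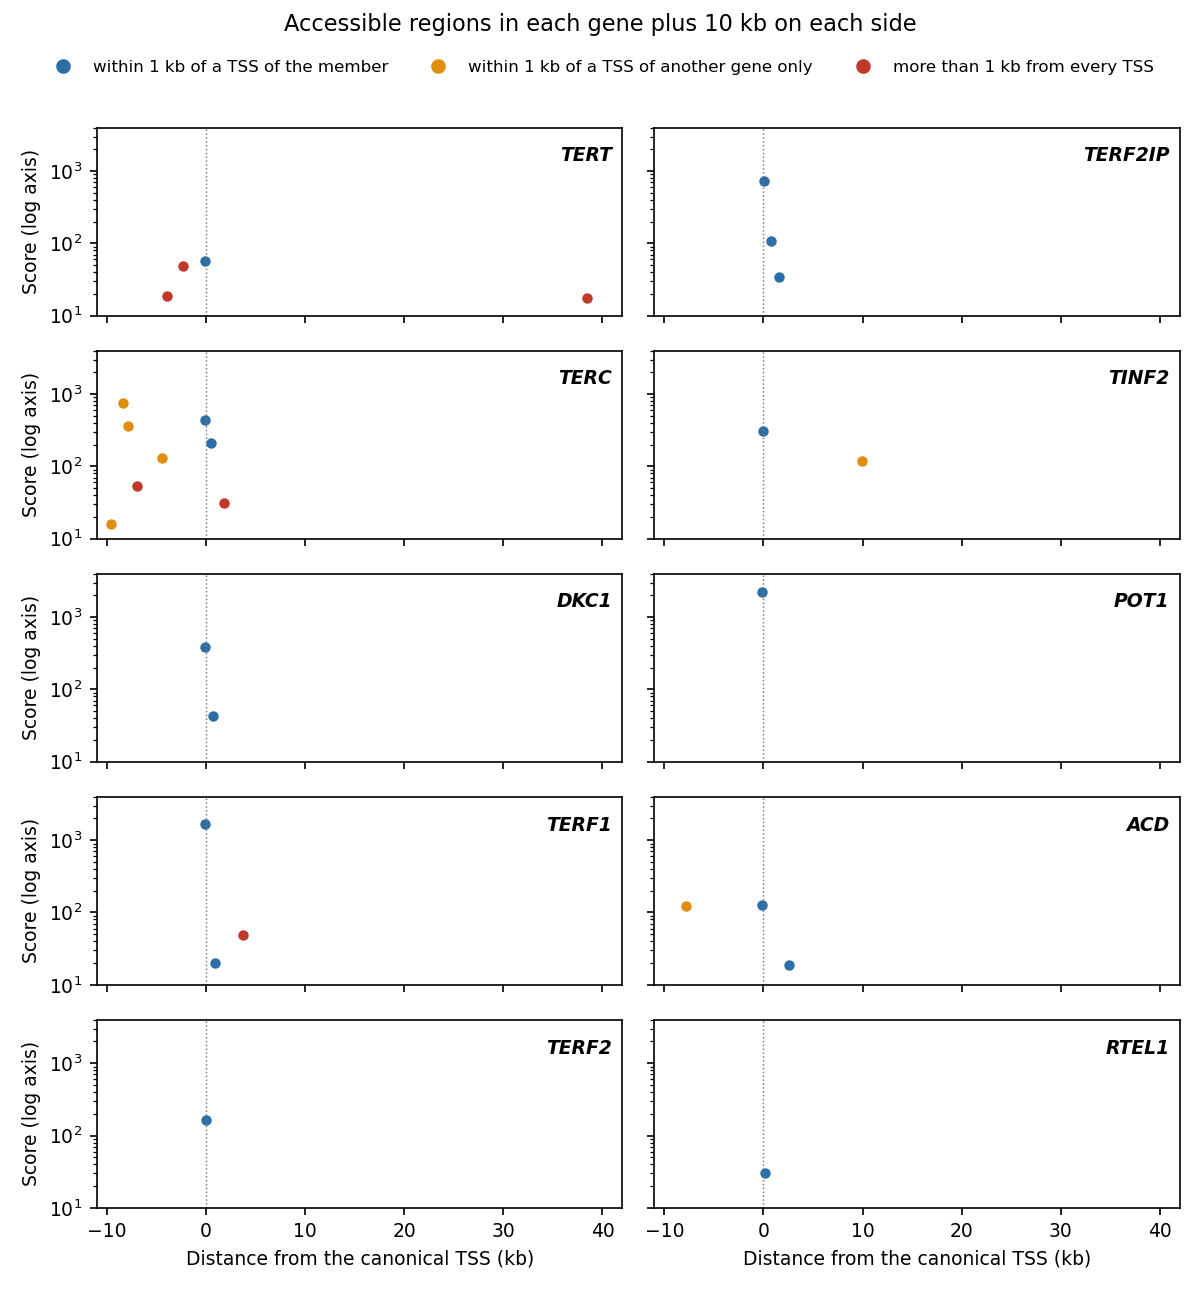
Score (−log10 q, log axis) of each of the 28 regions against the distance of its centre from the canonical TSS of the gene, in kb, with 1 panel per gene and negative distances upstream. TERT has 1 region at its own start (57.4) and 3 away from every TSS, whereas most points of the 9 other genes lie at a start of the gene itself or of a neighbour.

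With 50 kb on each side the count for TERT was 11, and the strongest was not at the promoter. A group of 5 regions lay between 18237 and 21549 bp upstream of the start, in sequence that belongs to no annotated gene and more than 1 kb from every TSS. Their scores were 62.6, 28.6, 28.6, 188.7 and 34.7 in order of distance. The strongest, chr5:1315749-1316249, was rank 5404 of the list and lay 20816 bp from the start of TERT. Beyond it, 2 weak regions (18.7 and 20.0) lay near TSSs inside CLPTM1L, the next gene, which was named after its values were seen. No region lay in the 50 kb downstream of TERT. Over the 10 genes this wider window held 62 regions, with a median of 5.5 per gene, against 4 per protein-coding gene. The list does not tell which gene a distant region acts on.

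**Figure D3:**
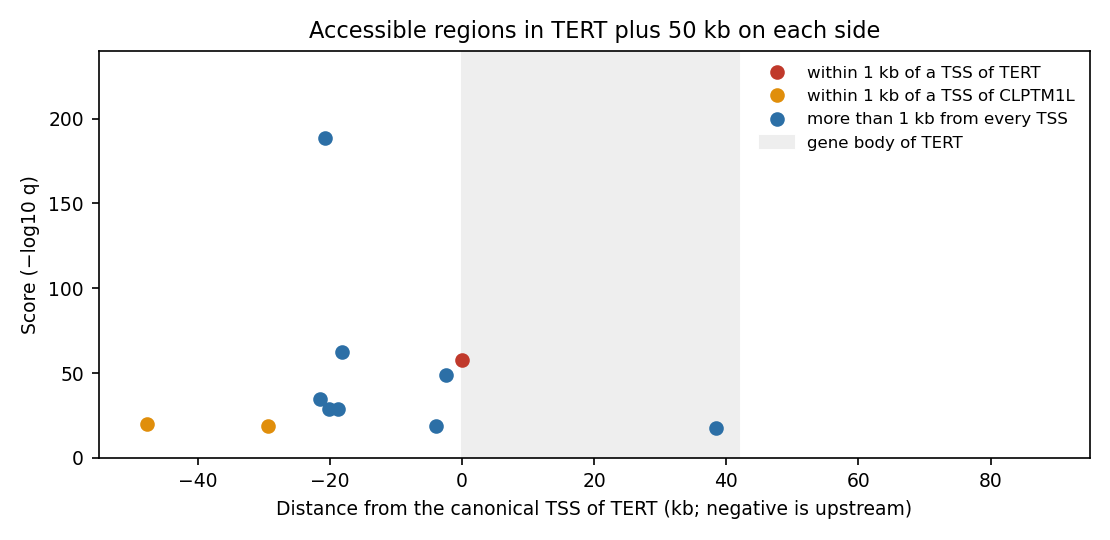
Score (−log10 q) of the 11 regions in TERT plus 50 kb on each side against the distance from its canonical TSS, in kb, with the gene body shaded. The promoter region (red, 57.4) is lower than 2 of the 5 regions about 20 kb upstream, of which the highest has 188.7.

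The promoter region of TERT stood out by its base composition. Of the protein-coding genes with a promoter region, 98.4% had a lower GC content in their strongest one than its 78.4%, and 94.3% had fewer CpG than its 66. The medians over these genes were 64.3% GC and 41 CpG. The 9 other genes had between 56.9% GC (TERC) and 68.5% GC (TERF2). Over the strongest regions of protein-coding genes the median score was 71.3 where GC was 75% or more (727 genes) and 153.6 between 65 and 70% GC (2792 genes). Of the 727 of highest GC, 44.0% had a lower score than TERT, compared with 28.9% of all protein-coding genes with a promoter region.

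Set against protein-coding genes in their own bin of GC, the other genes spread widely. POT1 was above 99.1% of them, TERF1 above 97.5%, TERF2IP above 85.7%, TERC above 77.2%, DKC1 above 76.0%, TINF2 above 70.3%, TERF2 above 52.4% and ACD above 44.7%. RTEL1 was above 10.3%. Each of these shares was lower than that over all bins, while that of TERT was higher. Over the 10 genes the score fell with GC content (Spearman's rho −0.75), and over the strongest regions of all protein-coding genes rho was 0.02. Both are given as descriptions, since all regions come from the same pooled libraries and base composition can affect amplification and mapping. Its part in these scores was not tested.

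**Figure D4:**
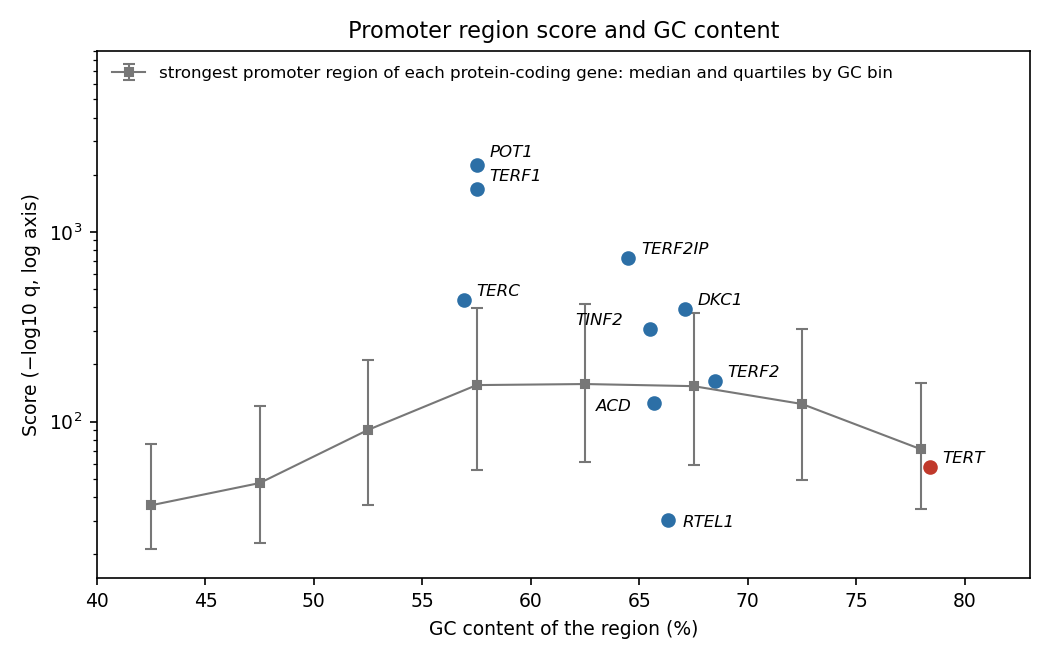
Score of the strongest promoter region (−log10 q, log axis) against its GC content in percent, for TERT (red) and the 9 other genes (blue), beside the median and quartiles over the strongest regions of protein-coding genes in bins of GC (grey). TERT, at 78.4% GC, lies below the median of its bin (71.3), and POT1 and TERF1 lie far above that of theirs (155.6).

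Other genes of telomere biology were looked up in lists of known function. Of 17 genes of telomerase assembly and TERC maturation, all had a promoter region, with a median score of 199.2. PINX1, an inhibitor of telomerase (890.9), and NAF1, an assembly factor (609.3), were the strongest. Of the 7 genes of the CST complex and polymerase alpha-primase, which fill in the complementary telomeric strand, 6 had one (median 174.2), led by STN1 (1076.0) and POLA1 (343.4), and POLA2 had none. Of 16 other telomere-associated genes 15 had one (median 371.3), led by the nuclease gene DCLRE1B (1788.7) and the double-strand break gene NBN (1670.2), and SLX4 had none. These counts stand beside the 57.2% of protein-coding genes.

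Of 11 genes for factors known to bind the TERT promoter in some settings, 10 had a promoter region (median 295.5). Of all protein-coding genes 57.2% had one, with a median of 129.6. Whether any of these factors binds the TERT promoter in GM12878 was not tested. MXD1, a repressor that competes with MYC for MAX (917.4), and GABPA, an ETS factor (846.0), led this list. MYC had 300.1 and MAX 437.5. WT1 had none. The weakest promoter regions of the lists were those of USF2 (18.7), WRAP53 (22.8), which takes telomerase to Cajal bodies, and CTC1 (22.8), all below TERT. MYC, MAX and these 3 were picked for naming after their values were seen.

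**Figure D5:**
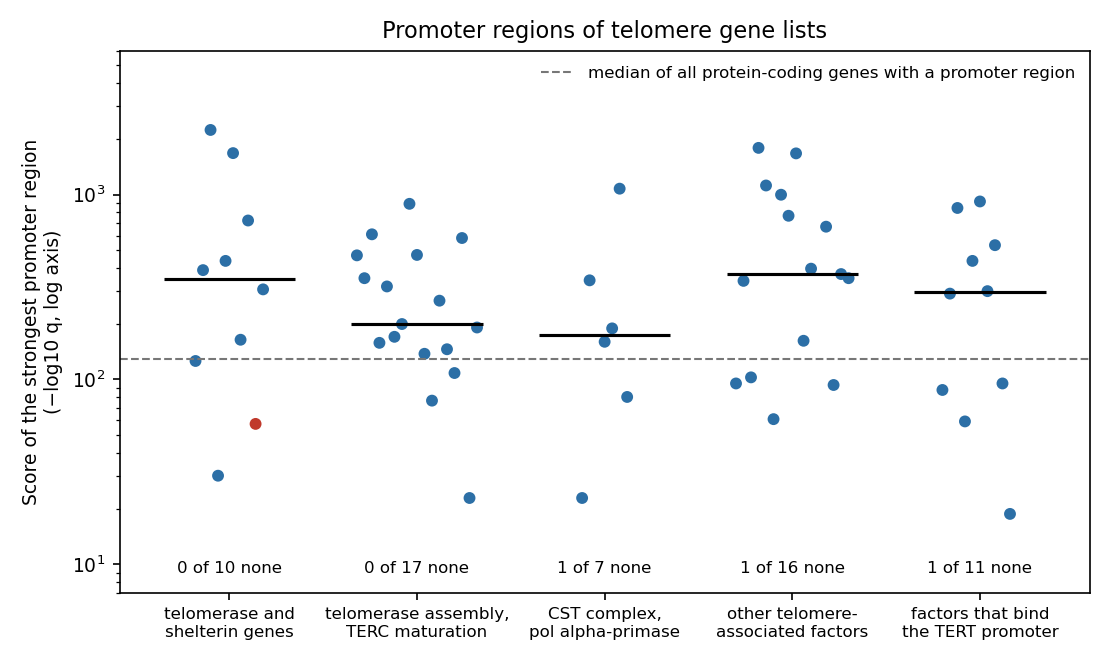
Score of the strongest promoter region (−log10 q, log axis) of each gene in 5 lists, with 1 point per gene, TERT in red, black bars at the medians and the number of genes without a promoter region below. The median of the 10 telomerase and shelterin genes is 348.4 and the dashed line marks 129.6, the median of protein-coding genes with one, and TERT, at 57.4, lies below both.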

How the data were processed

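The methods state that the authors aligned read pairs of the single-cell libraries to hg19 and dropped duplicates, reads of low quality and mitochondrial reads. Summits were then called on pooled single cells at a q-value limit of 0.05, and the 50000 of lowest q became regions centred on them. Tools in the submitters' notes are Picard 1.79, Bowtie2 2.1.0 and MACS2, with no version given for the last. The deposited score is −log10 q as the authors' caller wrote it. It carries no read counts, so depth is unknown, and cells with many fragments weigh more. The methods leave unsaid whether cells that failed the later filter were pooled. Removal of reads that map to several places can lower scores in repeated sequence.

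Regions, 501 bp wide as deposited, were placed by their centre, 1-based, on GRCh37 with GENCODE 44 mapped to it. A promoter region lay within 1 kb of any annotated TSS of the gene, and window counts covered the gene plus 10 kb on each side. GC content, CpG and motif matches on both strands were computed from GRCh37, leaving out the 3 regions with unknown bases for motifs. Placement was tested on simulated regions. The genes named are the 10 listed, the 2 strongest of each related list and each list member without a promoter region. Some of the neighbours with a TSS or region in a window are named too. Not every marker gene looked up is reported here. Members and lists were chosen with earlier results of these data known. Alternatives changed the promoter window, the TSS set, the flank and the part of the list used. Computations ran in Python 3.11.15 with pandas 2.3.3, numpy 2.4.6 and scipy 1.17.1, and figures in matplotlib 3.10.9.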

Additional observations from a re-analysis of the deposited data

How the results depend on the processing

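Scores are deposited values, so an alternative can lose the strongest region of a gene or put another in its place, and not change a score. None of 6 alternatives put another in its place. All 10 genes had a promoter region except with the outermost TSS alone, where TERF2 lost it, and with regions above the median score, where RTEL1 did, which left 9 in each case. The share of protein-coding genes with one was 54.8% for a window of 500 bp, 60.3% for 2.5 kb, 49.2% for the outermost TSS and 48.3% above the median score. With the gene body alone the windows held 14 regions, 1 of them in TERT, and the medians were 1 per member and 1 per protein-coding gene. With 50 kb on each side these were 62, 11, 5.5 and 4. Above the median score TERT kept 2 regions and protein-coding genes a median of 1. With summits of 1 called region counted once the medians were 1.5 and 1, and 1 gene (ACD) in place of 5 had 2 or more promoter regions, with 13.6% of protein-coding genes in place of 24.2%, a count added after the data were seen. No paired analysis was possible because there is 1 pooled list and no second group. The lowest score, 16.0, limits what a missing region can show.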
